A study of Homo sapiens with 36 samples.

Results

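MS4A1, CD22, FCER2, CD38, PAX5, FOXP1 and TCL1A are genes by which a B cell is recognised: 4 encode proteins of the cell surface and 3 encode proteins that act inside the cell on the B-cell programme. They were taken by symbol from a targeted RNA-Seq panel, as 7 of its 2549 genes, and their levels were read in 36 human lymphoma cell lines with 1 library a line. Per the labels, cell pellets were lysed in buffer and digested with proteinase K, and each line was run once. The labels name the lines and give no lymphoma type, so the types used here come from general knowledge of the named lines. They are 5 lines of marginal zone or hairy cell lymphoma (MZ/HC: HAIR_M, HC_1, KARPAS1718, SSK41 and VL51), of which HAIR_M and HC_1 are hairy cell lines, 9 of mantle cell lymphoma (MCL: GRANTA519, JEKO1, JVM2, MAVER1, MINO, REC1, SP49, SP53 and UPN1), and 5 of activated B-cell-like diffuse large B-cell lymphoma (ABC: HBL1, RIVA, SUDHL2, TMD8 and U2932). The 16 lines of germinal centre B-cell-like diffuse large B-cell lymphoma (GCB) are DB, DOHH2, FARAGE, KARPAS422, OCILY1, OCILY18, OCILY19, OCILY7, OCILY8, RCK8, SUDHL10, SUDHL16, SUDHL4, SUDHL6, TOLEDO and WSU_DLCL2. MEC1, a line from chronic lymphocytic leukaemia (CLL), is the only one of its type and entered no comparison of types. FARAGE, RCK8 and JVM2 have the least settled types. Each line is 1 immortal culture, so a type is represented by the few cultures that have been established from it.

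B-cell identity is set by transcription factors, of which PAX5 is the one that commits a lymphoid precursor to the B lineage and keeps it there. The proteins on the surface change as the cell matures: CD20 (MS4A1) and CD22 are carried by nearly all mature B cells, CD23 (FCER2) marks resting and activated follicular B cells and is typically bright in chronic lymphocytic leukaemia and absent from mantle cell lymphoma, and CD38 is high in germinal centre B cells and plasma cells. CD20 and CD38 are targets of therapeutic antibodies and CD22 is a target of antibody-drug conjugates.

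Counts on the 2549 genes summed to between 6422917 and 13451527 per library. Levels are given as CPM, the count relative to the library's total after scaling by TMM factors, which ran from 0.602 to 1.87, and log2 values are log2 CPM. The 10 control probes of the panel reached at most 64 counts in any library other than MEC1, where the highest had 424 counts (19.3 CPM). The MEC1 library therefore stands apart. With 3 counts as the limit that a count of 0 allows, no library could hide more than 0.474 CPM of a gene by counting error. No 2 libraries were near copies (highest Spearman rho 0.959, between SP53 and SP49, over 2549 genes). Of 9 other B-lineage genes measured, CD79A, a chain of the B-cell receptor, was at 98.8 CPM or above in every line. CD27 was under 10 CPM in 3 lines and CXCR5 reached down to 12.1 CPM. The keratin genes KRT8 and KRT18 were at 178 and 127 CPM or above in every line, so such a level does not by itself show B-cell origin. Summed levels of 7 measured T and NK cell markers lay between 15.1 and 730 CPM (highest in SUDHL16, where NCAM1 alone had 697 CPM), those of 8 myeloid markers between 34.3 and 906 CPM (highest in MEC1) and those of 8 epithelial and stromal markers between 483 and 3003 CPM (highest in MEC1). Their part in the results was not tested. In bulk lysates, fewer cells that carry a transcript and less transcript per cell cannot be told apart.

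The 7 genes fell into 3 kinds by how they varied. PAX5 was present in all lines and varied least of the 7, with an SD of 0.94 log2 units, smaller than that of most genes (34.1% of the 2406 genes kept had a smaller one). MS4A1 and CD22 were present everywhere and reached very low levels in a few lines (SD 1.76 and 1.78). CD38 (SD 2.46), FOXP1 (SD 2.32), FCER2 (SD 2.91) and TCL1A (SD 2.94) had the largest SDs. Of the genes kept, 99.1% and 99.3% had a smaller SD than FCER2 and TCL1A. From lowest to highest line, CD22 spanned more (650-fold) than FOXP1 (439-fold) or CD38 (408-fold).

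**Figure D1:**
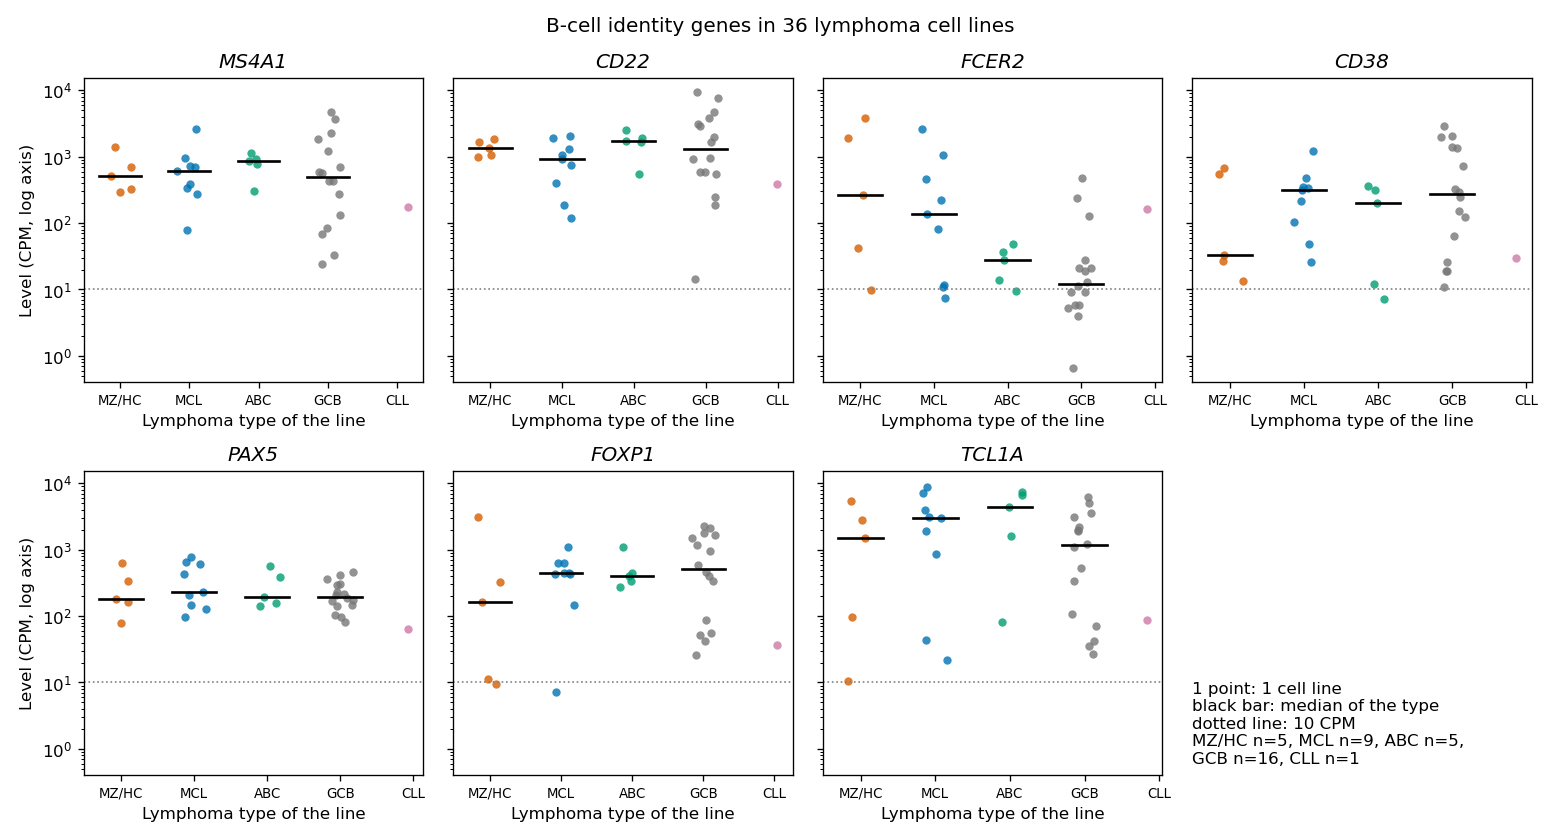
Level of each gene in each of the 36 lines (CPM, log axis) by lymphoma type, 1 point a line, with the median of each type as a bar. FCER2 lies above 100 CPM in 3 of 5 MZ/HC and 5 of 9 MCL lines against 3 of 16 GCB lines, whereas the types overlap for every gene.

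FCER2 encodes CD23, the low-affinity receptor for IgE. It lies on the minus strand of chromosome 19 (7688758 to 7702146, GRCh38) and is transcribed from alternative starts that give the isoforms CD23a and CD23b, of which CD23b is known to be induced by interleukin-4. The 300 bases around each of the 2 starts recorded by RefSeq on GRCh38.p14 are shown because FCER2 is the member whose level differed between types, and its starts are known to differ in regulation. Each window begins 250 bases before the start and is printed in the direction of transcription. Capitals mark the match to TTCNNNNGAA, a palindromic form bound by STAT6, the factor that interleukin-4 activates.
FCER2 start at chr19:7702082-7702381: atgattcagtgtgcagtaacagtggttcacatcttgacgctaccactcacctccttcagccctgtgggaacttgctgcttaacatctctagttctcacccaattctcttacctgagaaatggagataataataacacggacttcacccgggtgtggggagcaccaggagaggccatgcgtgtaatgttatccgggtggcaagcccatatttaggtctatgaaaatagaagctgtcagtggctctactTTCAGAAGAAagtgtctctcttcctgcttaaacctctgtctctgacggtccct
FCER2 start at chr19:7699392-7699691: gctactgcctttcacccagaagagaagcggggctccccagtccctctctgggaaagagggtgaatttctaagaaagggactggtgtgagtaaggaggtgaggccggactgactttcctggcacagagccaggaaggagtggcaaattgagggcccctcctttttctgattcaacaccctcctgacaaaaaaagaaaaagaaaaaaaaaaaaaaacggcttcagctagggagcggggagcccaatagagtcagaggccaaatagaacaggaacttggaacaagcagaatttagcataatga
The motif was present in the first window, the upstream start on the minus strand, and these letters were not in the other. The windows were not assigned to CD23a or CD23b here, so the match is not tied to the isoform induced by interleukin-4. Of 35116 promoter windows of this length, 6.44% held TTCNNNNGAA on either strand. The panel gave 1 count per gene, so the isoforms were not separated, and the match is a description of these letters only.

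FCER2 was scarce in many lines and abundant in a few. VL51 had the highest level at 3856 CPM, followed by GRANTA519 (2629 CPM), HC_1 (1951 CPM) and MAVER1 (1077 CPM). The lowest was SUDHL16 at 0.654 CPM (exact Poisson 95% interval 0.213 to 1.53), where 5 counts equalled the highest control probe of that library. In total 10 lines were under 10 CPM, 12 were over 100 CPM and the median line had 24.5 CPM.

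By type, the MZ/HC lines were split, with 3856 CPM in VL51, 1951 CPM in HC_1, 262 CPM in HAIR_M, 42.0 CPM in KARPAS1718 and 9.68 CPM in SSK41. MCL lines ran from 7.33 CPM in MINO through a median of 135 CPM to 2629 CPM in GRANTA519. ABC lines were all under 50 CPM, with 48.7 CPM in RIVA, 37.3 CPM in SUDHL2, 28.0 CPM in HBL1, 13.8 CPM in TMD8 and 9.49 CPM in U2932. GCB lines ran from 0.654 CPM in SUDHL16 through a median of 12.3 CPM to 487 CPM in FARAGE, and 7 of the 16 were under 10 CPM. The groups overlapped: SSK41 lay below the median GCB line, and FARAGE and DOHH2 (235 CPM) lay above the median MCL line. MEC1 had 166 CPM.

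Differences between the 4 types were tested for every gene in 1 fit over 35 lines (edgeR's quasi-likelihood test, Benjamini-Hochberg adjustment over 2378 genes). FCER2 was the 1 member of 7 that passed, against a background of 94 genes or 3.95% of those tested (F = 8.00, adjusted p = 0.0147). Type accounted for 28.3% of its variance in log2 CPM, compared with a median of 9.88% over the genes kept. The call rested on VL51: without that line the adjusted p was 0.0525. It was also lost in limma-voom (adjusted p = 0.145) and with the authors' log2 values in limma (adjusted p = 0.148).

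In pairwise contrasts of the same fit, FCER2 was higher in MZ/HC than in GCB lines by 4.27 ± 1.05 log2 units (SE, 95% interval 2.13 to 6.40, 19.2-fold, edgeR adjusted p = 0.0228). It was the 1 member called among 35 genes, 1.47% of those tested, of which 34 were higher and 1 lower in MZ/HC lines. Without VL51 the difference was 3.06 (adjusted p = 0.268), without HC_1 it was 4.09 (adjusted p = 0.0590), and without FARAGE it was 5.14 (adjusted p = 0.00375). Without both hairy cell lines it was 4.41 (adjusted p = 0.0786), and scaling by upper-quartile factors (adjusted p = 0.0586) or library size alone (adjusted p = 0.0589) also left it short of the threshold of 0.05. FCER2 was 3.17 ± 0.93 log2 units above GCB lines in MCL lines, which missed the threshold (95% interval 1.26 to 5.08, adjusted p = 0.0609). That difference was 2.05 without GRANTA519 (adjusted p = 0.304), 4.04 without FARAGE (adjusted p = 0.00917) and 3.88 without FARAGE, RCK8 and JVM2 (adjusted p = 0.0214). Of the other contrasts of FCER2, MZ/HC over ABC was 5.37 ± 1.72 (adjusted p = 0.359), MCL over ABC 4.27 ± 1.58 (adjusted p = 0.278) and MZ/HC over MCL 1.10 ± 1.23 (adjusted p = 0.999). FCER2 was therefore not shown to differ between MZ/HC and MCL lines, nor between either and ABC lines, and the intervals are wide. Both differences over ABC lines were larger in the fit than between the means of log2 CPM. Those means were 7.92 in MZ/HC, 6.83 in MCL and 4.55 in ABC lines. In limma-voom, MZ/HC over ABC was 3.39 (adjusted p = 0.859) and MCL over ABC 2.25 (adjusted p = 0.486). The fitted ABC over GCB difference was -1.10 ± 1.25 (adjusted p = 0.774), although the mean log2 CPM was 4.55 in ABC and 4.05 in GCB lines. Such a difference in sign between the fit and the mean log2 CPM occurred in 11 of the 42 contrast values of the members, of which 0 were called.

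**Figure D2:**
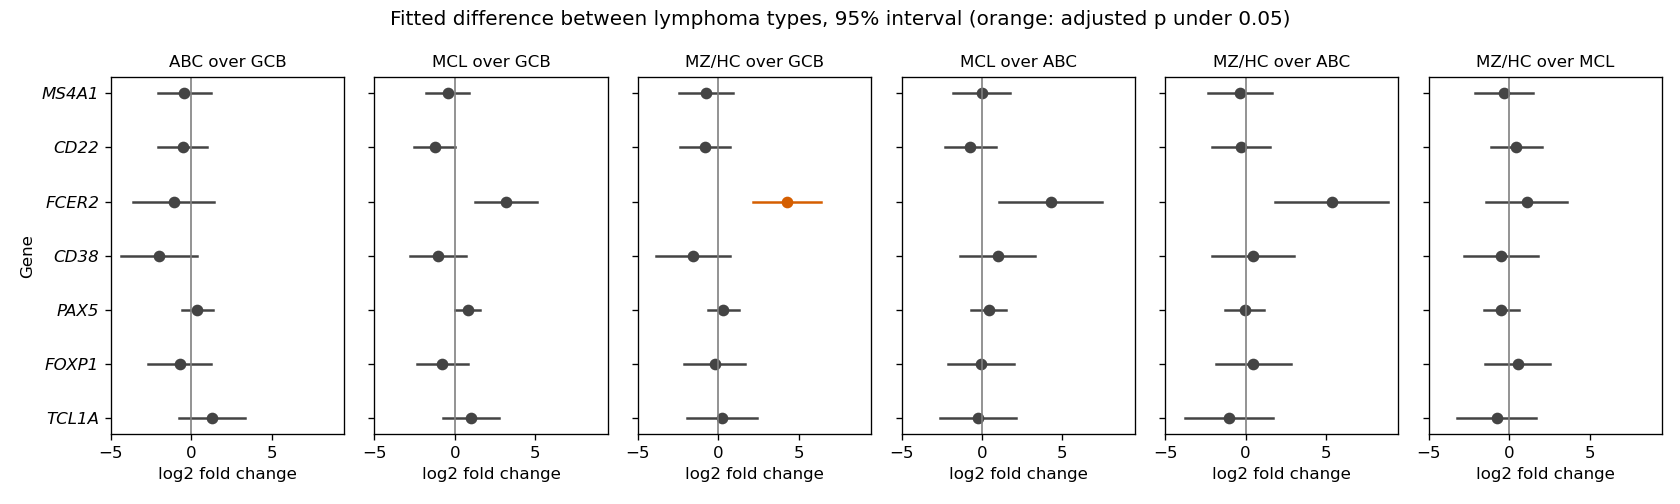
Fitted log2 fold change of each gene in the 6 contrasts of lymphoma types, with 95% intervals from the edgeR fit over 35 lines. The intervals are not adjusted for the number of genes, and FCER2 in MZ/HC over GCB (2.13 to 6.40) is the 1 value of 42 that passed after adjustment.

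No other member passed in any contrast under the same test. The adjusted p across the 4 types was 0.515 for CD38, 0.555 for CD22, 0.566 for PAX5, 0.747 for TCL1A, 0.846 for FOXP1 and 0.877 for MS4A1. In ABC over GCB, 0 members were called among 27 genes (1.14%), and 0 members and 287 genes had an unadjusted p under 0.05. For MCL over GCB the count was 0 members among 61 genes (2.57%), with 2 members (FCER2 and PAX5) and 385 genes under 0.05 unadjusted. MCL over ABC gave 0 members among 7 genes (0.294%), with 1 member (FCER2) and 318 genes under 0.05 unadjusted. Between MZ/HC and ABC lines, 0 genes were called (0%), with 1 member (FCER2) and 163 genes under 0.05 unadjusted. MZ/HC over MCL gave 0 members among 9 genes (0.378%), with 0 members and 161 genes under 0.05 unadjusted. The DESeq2 test called FCER2 and no other member in MCL over GCB (adjusted p = 0.00580), MCL over ABC (adjusted p = 0.0121) and MZ/HC over ABC (adjusted p = 0.00602), and no member in ABC over GCB or MZ/HC over MCL. DESeq2 called more genes in all of these contrasts. Of 2378 genes it called 164 in MCL over GCB, 46 in MCL over ABC and 25 in MZ/HC over ABC, against 61, 7 and 0 in edgeR. In ABC over GCB and MZ/HC over MCL it called 83 and 29 genes, against 27 and 9. The median log2 fold change of the 7 members ran from -0.53 to -0.01 over the 6 contrasts, and that of all genes from -0.17 to 0.09.

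MS4A1 encodes CD20, the target of rituximab, and lies on the plus strand of chromosome 11 (60455752 to 60470760). It was above 10 CPM in all 36 lines, with a median of 579.6 CPM. SUDHL16 was lowest at 24.0 CPM (95% interval 20.6 to 27.7), 24.0-fold below the median, followed by OCILY19 at 32.6 CPM (28.9 to 36.7) and DOHH2 at 67.7 CPM. These 3 GCB lines were the ones at least 3 log2 units (8-fold) below the median, the distance used here to call a line low. UPN1 (79.1 CPM), OCILY1 (84.2 CPM) and TOLEDO (133 CPM) came next. The highest lines were also of the GCB type, SUDHL4 at 4675 CPM and WSU_DLCL2 at 3743 CPM, so that the GCB lines alone spanned the whole range. MZ/HC lines had 1391 CPM (VL51), 699.8 CPM (HC_1), 512 CPM (KARPAS1718), 332 CPM (HAIR_M) and 292 CPM (SSK41). MCL lines lay between 79.1 CPM (UPN1) and 2580 CPM (GRANTA519), with a median of 613 CPM. ABC lines had 1142 CPM (SUDHL2), 929 CPM (HBL1), 876 CPM (U2932), 778 CPM (TMD8) and 307 CPM (RIVA). Those types lay inside the GCB range, and type accounted for 2.75% of the variance.

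SUDHL16 and OCILY19, low in MS4A1, differed in some of their other B-cell genes. In SUDHL16, CD22 was the fourth highest of the 36 lines at 3873 CPM, CD79A was at 1298 CPM and SPI1, which encodes the factor PU.1, was highest of all lines at 2556 CPM. By contrast, TCF3 (176 CPM), CD24 (162 CPM), CD27 (399 CPM) and CD40 (1744 CPM) in SUDHL16 lay below their medians over the 36 lines. In OCILY19, CD79A was at 256 CPM and CXCR5, a chemokine receptor of follicular B cells, was the third lowest at 19.5 CPM. CD27 (35.6 CPM) and CD40 (739 CPM) were also below their medians in OCILY19. SPI1 (1192 CPM), TCF3 (1992.5 CPM), CD74 (30827 CPM), CD24 (409 CPM) and IRF8 (719 CPM) were above theirs in that line. NCAM1, an adhesion molecule of NK and neural cells, was highest of all lines in SUDHL16 at 697 CPM and made up most of the sum of T and NK cell markers there, while CD2 was lowest of all lines at 1.31 CPM and CD5 the second lowest at 1.05 CPM.

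CD22 encodes an inhibitory co-receptor of the B-cell receptor that binds sialic acid, and lies on the plus strand of chromosome 19 (35319261 to 35347355). Its median was 1189.9 CPM, and 21 of 36 lines were over 1000 CPM. RCK8 stood alone at 14.5 CPM (95% interval 12.4 to 16.8), 80.9-fold below the median and 8.18-fold below the next line. The 169 counts behind that value exceeded the highest control probe of the library, which had 64. UPN1 followed at 118 CPM (10.0-fold below the median), then TOLEDO at 188 CPM and MINO at 189 CPM. SUDHL4 (9403 CPM), WSU_DLCL2 (7564 CPM) and FARAGE (4707 CPM) were highest. The 5 MZ/HC lines were close to each other, with 1849 CPM in HAIR_M, 1644 CPM in VL51, 1337 CPM in SSK41, 1068 CPM in HC_1 and 1004 CPM in KARPAS1718. MCL lines ran from 118 CPM in UPN1 to 2045 CPM in JVM2 around a median of 911 CPM. ABC lines had 2564 CPM in SUDHL2, 1944 CPM in U2932, 1738 CPM in RIVA, 1673 CPM in TMD8 and 551 CPM in HBL1. GCB lines spread from 14.5 to 9403 CPM with a median of 1329 CPM, and contained the values of every other type. The fitted MCL over GCB difference of -1.25 ± 0.62 log2 units did not pass (adjusted p = 0.311).

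RCK8 kept MS4A1 at 562 CPM, close to the median of the lines. It had the lowest CD79A of all lines (98.8 CPM), the second lowest CD27 (5.22 CPM), IRF8 (66.6 CPM) and CD24 (60.5 CPM), and a low CD38, FOXP1 and TCL1A. That CD27 level was under the highest control probe of the library (5.475 CPM). TOLEDO shared part of this pattern, with the lowest CD27 (4.83 CPM) and IRF8 (27.6 CPM) and the second lowest CD79A (141 CPM). Its TCF3 (5169 CPM) and CD24 (3512 CPM) were the highest of all lines. SPI1 in RCK8 was also below its median, at 175 CPM against 449.6 CPM, and CD74 was at 19201 CPM against a median of 22904 CPM. The remaining B-lineage genes were not low in RCK8: TCF3 was the second highest of all lines at 4218 CPM, CD40 was at 3659 CPM and CXCR5 at 1223 CPM. PAX5 in RCK8 was at 205 CPM, against a median of 200.1 CPM over the 36 lines.

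**Figure D3:**
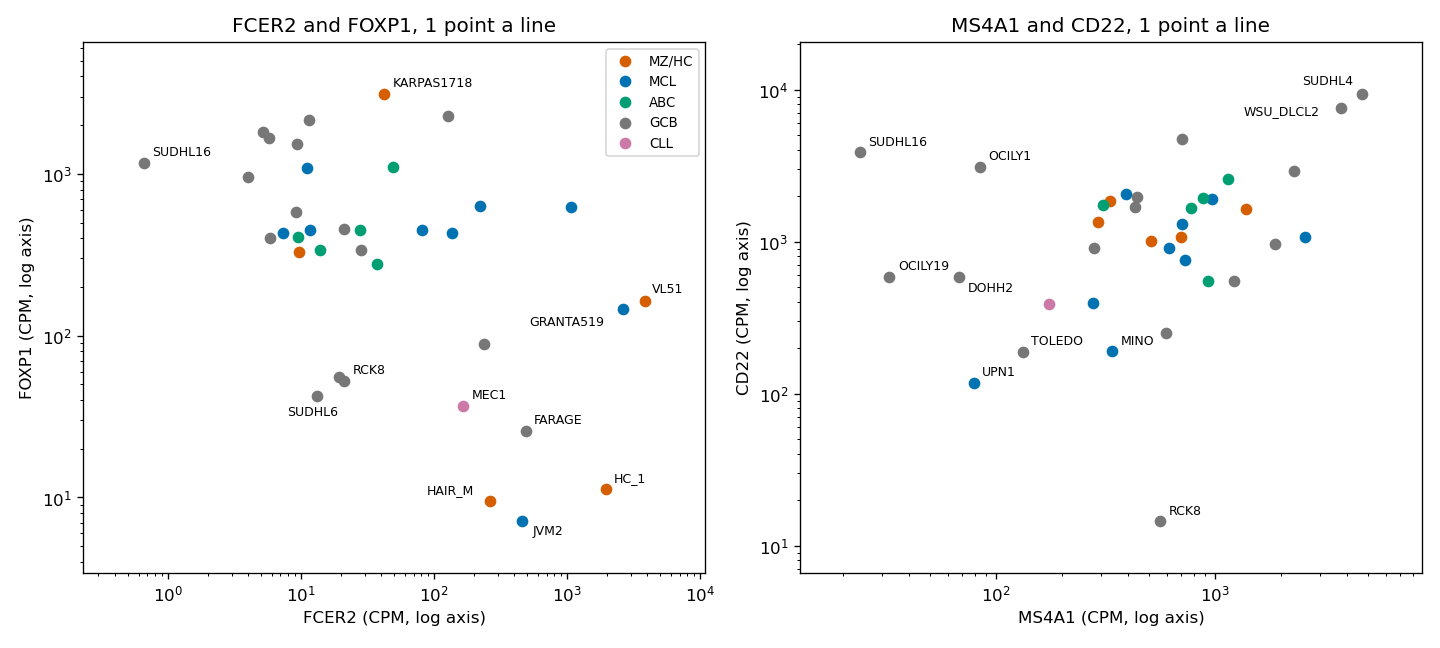
FCER2 against FOXP1 (left) and MS4A1 against CD22 (right) in the 36 lines (CPM, log axes), 1 point a line coloured by type, with the lines at the edges named. SUDHL16 combines 24.0 CPM of MS4A1 with 3873 CPM of CD22, and RCK8 combines 14.5 CPM of CD22 with 562 CPM of MS4A1.

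CD38 encodes a surface enzyme that consumes NAD and is the target of daratumumab. It lies on the plus strand of chromosome 4 (15778275 to 15853230). SUDHL2 was lowest at 7.08 CPM (95% interval 5.55 to 8.90), 31.7-fold below the median of 231 CPM, and was the 1 line under 10 CPM, with 73 counts against at most 38 for a control probe. OCILY18 (11.1 CPM), TMD8 (12.1 CPM), VL51 (13.3 CPM), RCK8 (18.8 CPM), SUDHL10 (19.3 CPM), SP53 (25.6 CPM), KARPAS422 (26.1 CPM) and HAIR_M (27.0 CPM) were also low, and MEC1 lay just outside the limit at 29.5 CPM. DOHH2 (2892 CPM), TOLEDO (2029.9 CPM) and SUDHL4 (1988 CPM), all GCB lines, were highest. The low lines came from all 4 types. MZ/HC lines had 685 CPM in HC_1, 559 CPM in KARPAS1718, 33.2 CPM in SSK41, 27.0 CPM in HAIR_M and 13.3 CPM in VL51. MCL lines ran from 25.6 CPM (SP53) through a median of 317 CPM to 1236 CPM (MAVER1). ABC lines were split into 358 CPM in RIVA, 319 CPM in U2932 and 204 CPM in HBL1 on one side and 12.1 CPM in TMD8 and 7.08 CPM in SUDHL2 on the other. GCB lines ran from 11.1 CPM (OCILY18) through a median of 273 CPM to 2892 CPM (DOHH2). None of the differences passed, the largest in size being ABC over GCB at -2.02 ± 1.16 log2 units (adjusted p = 0.484).

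PAX5 lies on the minus strand of chromosome 9 (36833275 to 37034185). It was present in every line. The lowest level was 64.0 CPM in MEC1 and the lowest outside MEC1 was 78.5 CPM in HC_1, against 791 CPM in GRANTA519, the highest, and a median of 200.1 CPM. The whole range was 12.4-fold, compared with 195-fold for MS4A1 and 5891-fold for FCER2. MZ/HC lines had 627 CPM in KARPAS1718, 338 CPM in SSK41, 181 CPM in VL51, 161 CPM in HAIR_M and 78.5 CPM in HC_1. MCL lines ran from 97.7 CPM (MINO) through 231 CPM at the median to 791 CPM. ABC lines had 569 CPM in RIVA, 386 CPM in TMD8, 195 CPM in SUDHL2, 160 CPM in HBL1 and 141 CPM in U2932, and GCB lines ran from 82.4 CPM (SUDHL10) through 196 CPM to 458 CPM (SUDHL4). All pairs of types overlapped. PAX5 was lower in libraries with a higher TMM factor (Pearson's r = -0.47, Spearman's rho = -0.43 over 36 lines), and the part of the scaling in its spread was not tested. FOXP1 was also lower in such libraries (r = -0.41, rho = -0.47), and the part of the scaling in its spread was not tested either.

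FOXP1 encodes a forkhead transcription factor of early and mature B cells whose high level is a marker used for activated B-cell-like lymphoma. It lies on the minus strand of chromosome 3 (70952817 to 71583993). Its median was 429.7 CPM and 7 lines were low. JVM2 (7.13 CPM, 95% interval 5.37 to 9.28) and HAIR_M (9.51 CPM) were under 10 CPM, followed by HC_1 (11.3 CPM), FARAGE (25.7 CPM), MEC1 (36.9 CPM), SUDHL6 (42.3 CPM) and RCK8 (52.4 CPM). SUDHL10 lay just outside at 55.7 CPM. KARPAS1718 (3127 CPM), SUDHL4 (2267 CPM) and OCILY8 (2161 CPM) were highest. MZ/HC lines were far apart, with 3127 CPM in KARPAS1718, 329 CPM in SSK41, 164 CPM in VL51, 11.3 CPM in HC_1 and 9.51 CPM in HAIR_M. In MCL, JVM2 was the 1 line under 100 CPM, and the others reached 1086 CPM in JEKO1 around a median of 449 CPM. ABC lines had 1099 CPM in RIVA, 448 CPM in HBL1, 408 CPM in U2932, 336 CPM in TMD8 and 276 CPM in SUDHL2, and none of them was low. GCB lines ran from 25.7 CPM (FARAGE) through a median of 520 CPM to 2267 CPM (SUDHL4). The fitted ABC over GCB difference was -0.72 ± 0.96 log2 units (95% interval -2.69 to 1.24, adjusted p = 0.821), although the mean log2 CPM was 8.82 in ABC and 8.60 in GCB lines. FOXP1 was not shown to differ between ABC and GCB lines in either direction.

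TCL1A encodes a co-activator of the kinase AKT, expressed in naive and germinal centre B cells and shut off in memory and plasma cells. It lies on the minus strand of chromosome 14 (95709967 to 95714196). TCL1A was over 1000 CPM in 22 lines and at least 3 log2 units below the median of 1759.8 CPM in 11. VL51 was lowest at 10.4 CPM (95% interval 8.12 to 13.1), 166-fold below the median. REC1 (22.1 CPM), RCK8 (26.9 CPM), DOHH2 (34.9 CPM), KARPAS422 (42.7 CPM), JVM2 (44.2 CPM), FARAGE (70.8 CPM), HBL1 (80.4 CPM), MEC1 (87.8 CPM), HC_1 (97.2 CPM) and SUDHL10 (109 CPM) made up the rest of the low lines. A gap of 1.61 log2 units then led to WSU_DLCL2 at 334 CPM. JEKO1 (8831 CPM), RIVA (7347 CPM) and MINO (7265 CPM) were highest. The low lines again came from every type. MZ/HC lines had 5446 CPM in KARPAS1718, 2796 CPM in HAIR_M, 1494 CPM in SSK41, 97.2 CPM in HC_1 and 10.4 CPM in VL51. MCL lines ran from 22.1 CPM (REC1) through a median of 3049 CPM to 8831 CPM (JEKO1). ABC lines had 7347 CPM in RIVA, 6775 CPM in SUDHL2, 4389 CPM in TMD8, 1602 CPM in U2932 and 80.4 CPM in HBL1. GCB lines ran from 26.9 CPM (RCK8) through a median of 1165 CPM to 6223 CPM (OCILY8).

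**Figure D4:**
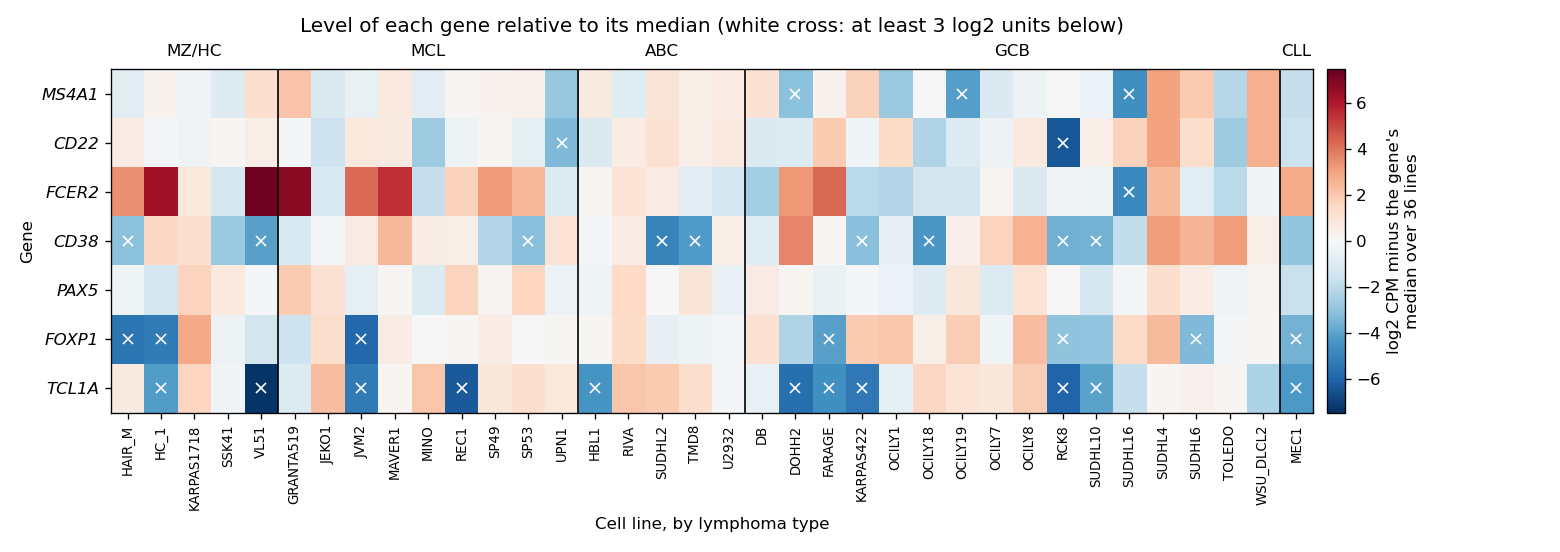
Level of each gene in each line as the log2 distance from the median of that gene over the 36 lines, with the lines grouped by type. RCK8 is low in CD22, CD38, FOXP1 and TCL1A at once, whereas SUDHL2 is low in CD38 and in no other gene.

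Read by line, a loss was counted where a gene was under 10 CPM. Of 252 pairs of line and gene, 13 were losses and they fell in 13 different lines. Of these, 10 were FCER2 losses, in SUDHL16, DB, OCILY1, KARPAS422, TOLEDO, MINO, OCILY18, OCILY19, U2932 and SSK41. The other 3 were CD38 in SUDHL2 and FOXP1 in JVM2 and HAIR_M. For FCER2, the 95% interval spanned 10 CPM in SSK41 (7.87 to 11.8), U2932 (7.75 to 11.5) and OCILY18 (7.46 to 11.1). The same held for FCER2 in OCILY19 (7.33 to 11.5) and FOXP1 in HAIR_M (7.40 to 12.0). JEKO1 (11.1 CPM) and OCILY8 (11.4 CPM) lay just above the limit for FCER2. The share of pairs under 10 CPM over all genes is not given here. Exactly 1 of the 4 surface antigens was under 10 CPM in 11 lines, and 2 or more in 0 lines. The count depends on the limit: 50 pairs were under 50 CPM, and 1 pair (FCER2 in SUDHL16) was at or under the highest control probe of its library. MEC1 had 0 of the genes under 10 CPM, so leaving it out could not change the count. Since the median of FCER2 was itself 24.5 CPM, an FCER2 loss by this limit can be a small step, whereas CD38 in SUDHL2 and FOXP1 in JVM2 lay 31.7-fold and 58.7-fold below their medians.

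Measured against the median instead, 33 pairs were low, in 20 lines, and 11 of these lines had 2 or more low genes. RCK8 had the most, with CD22, CD38, FOXP1 and TCL1A. FOXP1 and TCL1A were low together in FARAGE, HC_1, JVM2 and MEC1 as well as RCK8, which is 5 lines or 71.4% of the FOXP1-low and 45.5% of the TCL1A-low lines. CD38 and TCL1A were low in KARPAS422, SUDHL10 and VL51, and CD38 and FOXP1 in HAIR_M. DOHH2 was low in MS4A1 and TCL1A, with the highest CD38 of all lines, and SUDHL16 was low in MS4A1 and FCER2. A single gene was low in 9 lines: MS4A1 in OCILY19, CD22 in UPN1, CD38 in OCILY18, SP53, SUDHL2 and TMD8, TCL1A in HBL1 and REC1, and FOXP1 in SUDHL6.

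Across lines, the pairs that moved together most were few, and they are given as descriptions over 36 lines that share the scaling of their libraries. FCER2 and FOXP1 ran in opposite directions (r = -0.52, rho = -0.49), and r was -0.55 without VL51 and GRANTA519 and -0.51 within the 16 GCB lines. FCER2 was over 100 CPM in 5 of the 7 lines low in FOXP1, namely HC_1 (1951 CPM), FARAGE (487 CPM), JVM2 (459 CPM), HAIR_M (262 CPM) and MEC1 (166 CPM), against 7 of the other 29 lines. The exceptions were RCK8 (21.0 CPM) and SUDHL6 (13.2 CPM). FOXP1 ran with TCL1A (r = 0.48, rho = 0.39; r = 0.53 within GCB lines) and with PAX5 (r = 0.47, rho = 0.46; r = 0.39 within GCB lines). MS4A1 and CD22 were only loosely related (r = 0.30, rho = 0.34), although SUDHL4 and WSU_DLCL2 were the highest 2 lines for both. FARAGE, JVM2, GRANTA519 and MEC1 are known to carry Epstein-Barr virus, which induces CD23 in infected B cells. The labels give no viral status, so this list comes from general knowledge and may leave out other lines. The FCER2 levels of these lines, 487, 459, 2629 and 166 CPM, were all over 100 CPM, as were those of 12 of the 36 lines in total. Whether the virus bears on them was not tested.

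The slope of every other gene on log2 PAX5 was fitted over the 36 lines in edgeR's quasi-likelihood test. FOXP1 was the 1 member of 6 called, with a slope of 0.90 ± 0.33 log2 units per log2 unit of PAX5 (SE, adjusted p = 0.0266). In this fit 948 of 2405 genes or 39.4% were called, a share above that of the members. The slope was 0.45 (adjusted p = 0.409) with the log2 TMM factor as a covariate and 0.58 (adjusted p = 0.315) under upper-quartile scaling, and without KARPAS1718 the adjusted p was 0.0897. MS4A1 had a slope of 0.59 ± 0.28, which missed the threshold (adjusted p = 0.0930). The slopes of TCL1A (0.47), CD38 (0.27), CD22 (0.27) and FCER2 (0.02) did not pass, nor did those of any of the 9 other B-cell genes below.

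Genes outside the 7 whose levels followed each most closely were taken by Spearman's rho over 36 lines among 2399 genes. For FCER2 they were ENTPD1, which encodes the ecto-enzyme CD39 (rho = 0.84), SLAMF7, a surface receptor of plasma cells (0.74), and BATF, an AP-1 family transcription factor (0.73). For FOXP1 they were TXNIP, an inhibitor of thioredoxin (0.81), SYK, the kinase downstream of the B-cell receptor (0.76), and ERCC1, a DNA repair factor (0.76). CD22 was followed by TIPARP (0.80), MAP2K1, the kinase MEK1 (0.72), and USF2 (0.70). PAX5 was followed by CIRBP, an RNA-binding protein (0.76), CIC, a transcriptional repressor (0.72), and SH2B1 (0.71). TCL1A was followed by RASGRP2, an activator of the small GTPase RAP1 (0.69), SERPINF1 (0.65) and IL16 (0.65). The nearest genes were farther away for MS4A1, with GRN (0.57), PRKCD (0.54) and IL10RA (0.52), and for CD38, with DLL3, TCL1B and TIFA (0.55 each). All of these genes were picked as the highest of 2399, so a high rho is partly a result of the choice. No test was made of them, and the lines share the scaling of their libraries.

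Of 29 other B-lineage genes listed, 9 were measured: CD79A, CD24, CD27, CD40, CD74, SPI1, IRF8, TCF3 and CXCR5. In the 4-type test 0 of the 9 passed in edgeR, where 94 of all genes (3.95%) passed, and the lowest adjusted p was 0.180 for CD74, the invariant chain of MHC class II. At an unadjusted p under 0.05 there were 3 of the 9 (CD74, TCF3 and SPI1) and 382 of all genes. Their summed level, dominated by CD74, ran from 30197 to 86140 CPM in MZ/HC lines, from 13881 to 78319 CPM in MCL lines, from 15836 to 31218 CPM in ABC lines and from 14396 to 67722 CPM in GCB lines.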

How the data were processed

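RNA was measured by targeted RNA-Seq on an Illumina NextSeq in 36 cell lines, 1 library each, per the labels' protocols. The deposited table held a whole-number count per target and library. A second deposited table held log2 values, which matched the log2 of 1 plus the count over a library's own factor to within 0.00529. The submitters' processing notes name build hg38. The aligner, the counter and the use of strand are not given in the labels or files.

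Control probes stayed out of totals and tests. Counts were scaled by TMM in edgeR 4.0.16 (R 4.3.3), with log2 CPM at a prior count of 2. Genes reaching 10 CPM in 4 or more lines were tested, and all 7 members passed. SE is the size of the log2 fold change over the square root of F. Lines are the replicates of a type, and p-values measure the spread between them. Exact Poisson intervals (95%) cover counting error only. The tests were checked on simulated data. Alternatives used DESeq2 1.42.0, limma 3.58.1, other scaling, filters and left-out lines. Named lines were under 10 CPM or at least 3 log2 units below a gene's median, and named other genes were the 3 nearest by rho. The members and lists were chosen with earlier results of these data known, and 1 listed gene is not reported here. Sequences are from RefSeq (GRCh38.p14), where 6 of 7 members had an entry, and coordinates from GENCODE 29.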

Additional observations from a re-analysis of the deposited data

Results flagged for a closer look

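HBL1 had the lowest CD22 of the ABC lines, 551 CPM, far from the other 4, which lay between 1673 and 2564 CPM. On the log2 CPM scale the gap was 0.722 of the group's range, against a critical value of 0.710. JVM2 had the lowest FOXP1 of the MCL lines, 7.13 CPM, against 145 CPM in the next line, GRANTA519. That gap was 0.598 of the range on the log2 CPM scale, against a critical value of 0.493. Both were found among 21 groups of values tested, and chance flags about 1 in 20. Neither difference has a replicate library behind it.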

How the results depend on the processing

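No line was measured more than once, so counting error is the only error that can be given for differences between neighbouring lines. Error from culture and library preparation could not be estimated, and the intervals leave it out. No paired analysis was possible because the labels give no replicate numbers that pair lines across types.

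For MZ/HC over GCB the number of members called was 1, and it was 0 with upper-quartile factors, with library size alone, in limma-voom, with the authors' log2 values in limma and without HAIR_M and HC_1. Calls over all genes in that contrast fell as well, to 22, 20, 5, 2 and 10 in these settings in that order, against 35. FCER2 in that contrast had adjusted p from 0.00319 to 0.258 over 11 settings. Across the 4 types the count of 1 became 0 in limma-voom and with the authors' log2 values, where 47 and 38 genes were called. In MCL over GCB it was 0 and became 1 in the DESeq2 test and without FARAGE, RCK8 and JVM2, and the DESeq2 test also gave 1 in MCL over ABC and in MZ/HC over ABC. Calls over all genes in MCL over GCB numbered 164 and 66 in these settings, against 61. In MCL over ABC and MZ/HC over ABC they numbered 46 and 25 in the DESeq2 test, against 7 and 0. FCER2 in ABC over GCB changed sign to 0.46 in limma-voom and 0.45 with the authors' log2 values. On PAX5 the count of 1 became 0 with upper-quartile factors, library size alone or the log2 TMM covariate, and 2 in DESeq2, where MS4A1 was added (slope 0.67, adjusted p = 0.0182). Genes called on PAX5 numbered 58, 37, 136 and 1147 in these settings, against 948. Genes called across the 4 types ran from 38 (authors' log2 values) to 202 (DESeq2), against 94. Pairs under the limit numbered 13, against 1 at or under the control probes, 1 under 10 counts and 50 under 50 CPM. Leaving out MEC1, a setting chosen after seeing the data, could not change that number, as MEC1 had 0 such pairs. The causes were not tested.

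With each line left out in turn, the members called ranged from 0 to 1 across the 4 types (0 without VL51), from 0 to 1 in MZ/HC over GCB (0 without HC_1 or VL51), from 0 to 1 in MCL over GCB (1 without DOHH2, FARAGE, JEKO1, SSK41 or UPN1) and from 0 to 1 on PAX5 (0 without KARPAS1718). They stayed at 0 in the other contrasts. Calls over all genes numbered 83 across the 4 types without VL51, against 94, and 854 on PAX5 without KARPAS1718, against 948. In MZ/HC over GCB they numbered 26 without HC_1 and 28 without VL51, against 35. In MCL over GCB they numbered 64, 85, 54, 63 and 69 without DOHH2, FARAGE, JEKO1, SSK41 and UPN1 in turn, against 61. FCER2 in MZ/HC over MCL changed sign to -0.11 without VL51 and otherwise reached 2.19.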
